A study of Mus musculus with 9 samples.

Results

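The 9 genes described here encode Janus kinases (JAKs) and signal transducers and activators of transcription (STATs). They are the 3 kinase genes *Jak1*, *Jak2* and *Tyk2* and the 6 factor genes *Stat2*, *Stat3*, *Stat4*, *Stat5a*, *Stat5b* and *Stat6*. They were taken by symbol from a table of 52550 mouse genes. The rule used no expression value, but the genes were chosen with earlier results of these data known. Each symbol occurred 1 time in the table, and all 9 genes had reads. The experiment compared plasmacytoid dendritic cells (pDCs) of C57BL/6 mice that were WT (G/G), heterozygous (G/A) or homozygous (A/A) for a knocked-in allele of *Ncf1*, with 3 samples of each genotype. This allele replaces the arginine at residue 90 of NCF1, a subunit of the NADPH oxidase, by histidine. Per the study's methods the mice were females 10 to 12 weeks old, and the pDCs were sorted from the spleen as CD11c-intermediate cells with SiglecH and PDCA1 on their surface. All samples of the 3 genotypes received R848, a ligand of TLR7 and TLR8, at 10 μg/mL for 12 hours, and no unstimulated sample is part of the design. Of the 9 libraries, A/A replicate 1 was the 1 analysed here. Hence neither genotypes nor stimulated and unstimulated cells are compared below, and the levels come without an error between mice. In a bulk library of this kind, fewer cells of a type and less RNA per cell cannot be told apart.

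JAKs are tyrosine kinases that sit on the inner part of cytokine receptors. When a cytokine brings receptor chains together, the kinases phosphorylate each other, the receptor and the STATs that dock there. The phosphorylated STATs pair through their SH2 domains, enter the nucleus and bind DNA. Type I IFN, which pDCs make in large amounts, signals through JAK1 and TYK2, and its main factor, ISGF3, contains STAT2 and IRF9. The RNA levels below say nothing of phosphorylation, the step that switches these proteins on.

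The library held 31408298 reads on 17664 genes. Levels are given as counts per 1000000 reads (CPM) with Wilson 95% confidence intervals (CIs). They cover counting error only. Whether amplified copies of a molecule were removed is not given in the sources used here. Longer transcripts collect more reads, so genes are compared with each other in CPM per kilobase of exon, the length being the union of all annotated exons of a gene. A floor of 3 reads corresponded to 0.0955 CPM. *Ncf1* had 1079 CPM, and the values do not separate its alleles. All 11 pDC markers were above the floor, with a median of 374 CPM, among them *Siglech* with 374 and *Bst2*, which encodes PDCA1, with 1657. The conventional DC markers had a median of 73.9 CPM, with 6 of 7 above the floor and *Cd209a* listed at 0. In that list *Ccl22* had 1347 CPM and *Fscn1* 428, and per kilobase of exon they had 579 and 142 CPM, both above *Siglech* with 110.4. On that scale the pDC markers *Ly6d*, *Bst2* and *Spib*, with 2307, 1835 and 798, were above *Ccl22*. *Irf8* with 421 was above *Fscn1*, and the other pDC markers were below *Fscn1*. The medians per kilobase of exon were 96.4 CPM for the pDC markers and 12.4 for the conventional DC markers. The macrophage markers had a median of 18.9 CPM, with 6 of 6 above the floor, from 1.72 to 49.0 CPM. The B cell markers had a median of 2.32 CPM, with 4 of 5 above the floor and *Pax5* listed at 0. The medians of the T cell, NK cell, neutrophil and erythroid markers were 0 CPM. Above the floor were 2 of 6, 1 of 5, 2 of 5 and 2 of 5 of them, in that order. While *Cd3e*, *Cd3d*, *Cd3g*, *Ncr1* and *Ly6g* were listed at 0, the T cell markers *Cd8b1* and *Cd4* had 35.1 and 19.5 CPM. The NK cell marker *Klre1* had 1.24 CPM. The neutrophil markers *S100a8* and *S100a9* had 14.7 and 9.62 CPM, and the erythroid markers *Hba-a1* and *Hba-a2* had 2.83 and 0.796. The methods name female mice, whereas the Y-linked *Ddx3y*, *Eif2s3y*, *Kdm5d* and *Uty* had 102, 86.1, 27.0 and 19.0 CPM and *Xist* was listed at 0 in this library, and no second library was used here to set beside these values. Whether other cells contributed to the JAK and STAT levels was not tested.

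The 9 genes together had 134542 reads, or 0.428% of the library. The 6 STAT genes held 99142 of these reads and the 3 JAK genes 35400. Every member stood high among the genes with reads. The percentile by CPM, with ties at their midpoint, ran from 94.2 for *Stat4* and *Stat5b* to 99.3 for *Stat2*, with a median of 97.3. By CPM per kilobase of exon the percentiles ran from 89.7 for *Jak1* to 98.5 for *Stat2*. The median level of the members was 63.0 CPM per kilobase of exon, beside 3.83 over the 12201 protein-coding genes with reads. The members ran from 27.7 CPM per kilobase of exon for *Jak1* to 189 for *Stat2*.

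**Figure D1:**
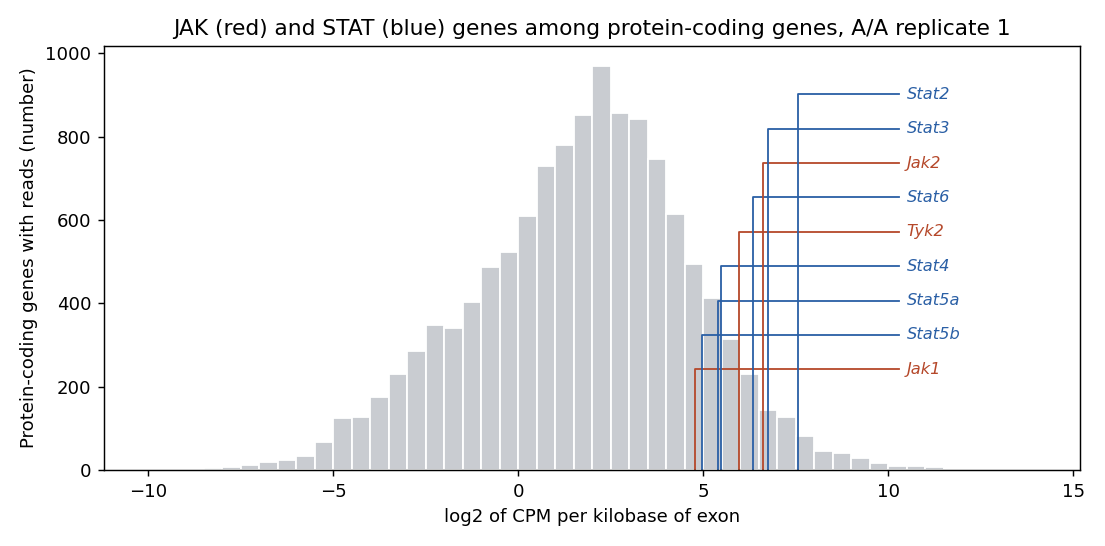
The plot shows the number of protein-coding genes with reads (vertical axis) by level in A/A replicate 1, as log2 of CPM per kilobase of exon (horizontal axis, bins of 0.5). The coloured lines mark the 9 members, which lie to the right of the peak, from *Jak1* at 27.7 to *Stat2* at 189 CPM per kilobase before the log.

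Among the kinases, *Jak2* was the highest and *Jak1* the lowest. *Jak2* (ENSMUSG00000024789.12, chromosome 19, 29251828 to 29313080, plus strand of GRCm38) encodes the kinase of the receptors for GM-CSF, IL-3 and IFN-γ. It had 15525 reads, or 494 CPM (95% CI, 487 to 502) and 98.3 CPM per kilobase of exon (95% CI, 96.7 to 99.8). *Tyk2* (ENSMUSG00000032175.11, chromosome 9, 21104068 to 21131243, minus strand), whose product serves the receptors for type I IFN, IL-10 and IL-12, had 13588 reads. Its levels were 433 CPM (95% CI, 425 to 440) and 63.0 CPM per kilobase (95% CI, 62.0 to 64.1). *Jak1* (ENSMUSG00000028530.14, chromosome 4, 101152367 to 101265282, minus strand) encodes a kinase shared by the IFN receptors, the receptors that use gp130 and those that use the common γ chain. It had 6287 reads, or 200.2 CPM (95% CI, 195 to 205) and 27.7 CPM per kilobase (95% CI, 27.0 to 28.4).

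The kinases that work side by side on the type I IFN receptor stood at different levels in this library. Per kilobase of exon, *Jak1* stood at 0.440 times *Tyk2* (exact binomial 95% CI, 0.426 to 0.453) and at 0.282 times *Jak2* (95% CI, 0.274 to 0.290). *Tyk2* stood at 0.641 times *Jak2* (95% CI, 0.627 to 0.656). These intervals cover counting error within a single library. The annotated length matters here, since the exons of *Jak1* add up to 7227 bases over 8 transcripts while its longest transcript has 4906. *Jak2* has 5030 bases on either count. With the longest transcript as the length, *Jak1* stood at 0.455 times *Tyk2* and 0.415 times *Jak2*, so it was the lowest kinase with either length. The antisense gene *1700084C06Rik* covers 554 of the 6865 exon bases of *Tyk2*, or 8.07%, and had 132 reads, 0.971% of the number on *Tyk2*. Without a stated use of strand, reads from that stretch cannot be given to either gene with certainty. No 50-base window of the *Jak1* and *Jak2* transcripts occurred in a transcript of another gene.

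**Figure D2:**
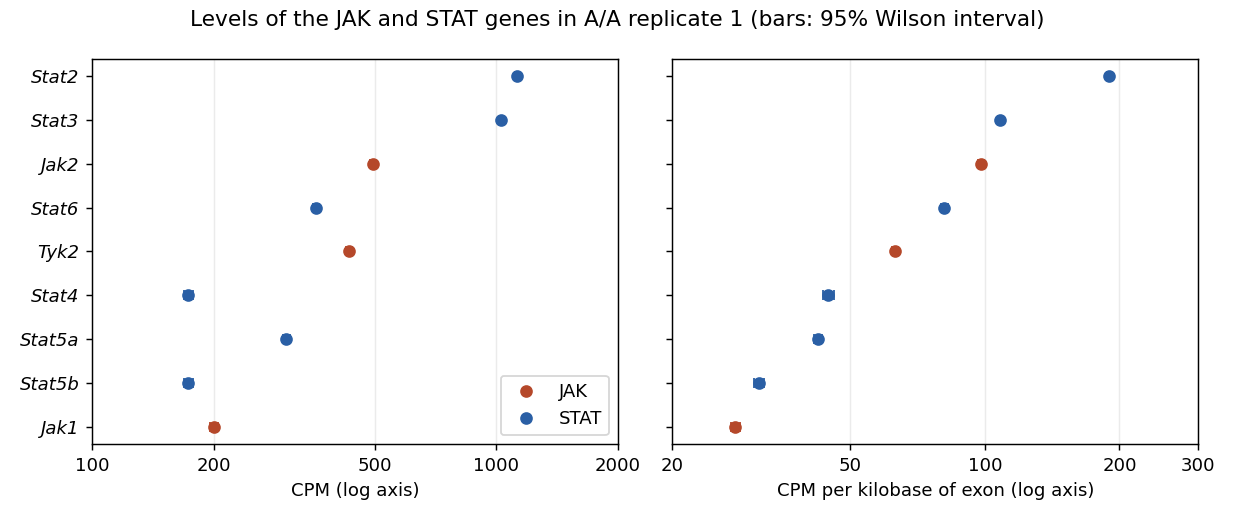
Each point is 1 of the 9 genes (rows) in A/A replicate 1, with CPM on the left and CPM per kilobase of exon on the right, both on log axes, and bars give the 95% Wilson interval, often smaller than the point. *Stat2* and *Stat3* lie to the right of the other genes in CPM, and only *Stat2* stands clear of all others per kilobase, at 189.

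*Stat2* was the highest of the 9 genes in CPM and per kilobase of exon, and the second, at 405 CPM beside 446 for *Stat3*, per kilobase of coding sequence. STAT2 is the factor that carries the type I and type III IFN signal. *Stat2* (ENSMUSG00000040033.16, chromosome 10, 128270559 to 128292849, plus strand) collected 35235 reads. Its level was 1122 CPM (95% CI, 1110 to 1134). Per kilobase of exon its level was 189 CPM (95% CI, 187 to 191). No other gene shares its exon bases, and 0% of its 150-base windows occurred in transcripts of another gene.

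*Irf9*, which encodes the DNA-binding partner of STAT2, had 10622 reads, or 338 CPM and 62.8 CPM per kilobase of exon. *Stat2* stood at 3.01 times *Irf9* per kilobase of exon (exact binomial 95% CI, 2.95 to 3.08) and at 1.67 times per kilobase of coding sequence. Per kilobase of exon, the receptor chains of the same pathway lay above both kinases that serve them. *Ifnar2* had 122 CPM per kilobase and *Ifnar1* 94.7. In CPM without a length, *Ifnar1* with 562 was above *Tyk2* with 433, but *Ifnar2* with 406 was below it. Other lengths were not tried for the receptor chains. Along this chain of receptor, kinase and factor, *Stat2* was the highest and *Jak1* the lowest on the scale of CPM per kilobase of exon.

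The promoter of *Stat2* is shown because this gene had the highest level per kilobase of exon, though not per kilobase of coding sequence, and because ISGF3, the complex its product belongs to, binds the IFN-stimulated response element (ISRE). Promoter windows of 300 bases, from 250 bases before to 50 after the transcript starts of RefSeq (GRCm38.p6), were found for all 9 members, with 12 windows in all. They were searched on both strands for an ISRE core spelled GAAANNGAA and for the IFN-γ-activated site (GAS) spelled TTCNNNGAA, which reads the same on both strands. These spellings can overlap each other in a sequence. In the *Stat2* window (chr10:128270248-128270547, plus strand) the capitals mark the ISRE core, which lies on the minus strand and starts 221 bases before the transcript start.

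Stat2 promoter: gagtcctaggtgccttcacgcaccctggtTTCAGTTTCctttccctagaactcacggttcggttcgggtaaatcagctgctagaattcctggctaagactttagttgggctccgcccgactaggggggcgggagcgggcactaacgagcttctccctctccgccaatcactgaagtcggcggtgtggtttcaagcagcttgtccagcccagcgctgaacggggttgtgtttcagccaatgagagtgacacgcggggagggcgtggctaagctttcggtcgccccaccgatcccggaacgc

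The only other member with this core was *Stat4*, in the window of its second, downstream transcript start. There the core lies on the plus strand, 97 bases before the start, at chr1:52008143-52008151, and is shown with 20 bases on each side.

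Stat4 downstream promoter: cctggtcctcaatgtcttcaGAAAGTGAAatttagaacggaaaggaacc

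So 2 of 9 members held the ISRE core, beside 9.76% of the 27025 genes with a promoter window, and 0 of 9 held the GAS spelling, beside 9.55%. By window, 8.56% of 32851 promoters held the ISRE core and 8.30% the GAS spelling. A match is a run of letters and not a site shown to be bound. The other windows lack these letters within 300 bases, which says nothing of sites farther away.

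*Stat3* was the second member in CPM, close to *Stat2*, and the gap between them depended on the length. STAT3 carries the signals of IL-6, IL-10 and FLT3L, the growth factor of pDCs. *Stat3* (ENSMUSG00000004040.16, chromosome 11, 100885098 to 100939540, minus strand) collected 32324 reads. Its level was 1029 CPM (95% CI, 1018 to 1040) and 108 CPM per kilobase of exon (95% CI, 107 to 109). Per kilobase of exon, *Stat2* stood at 1.75 times *Stat3* (exact binomial 95% CI, 1.73 to 1.78). *Stat3* has the most annotated transcripts of the members, 14, of which 4 are coding, and their exons add up to 9527 bases against 6042 in the longest transcript and 2310 of coding sequence. With the longest transcript as the length *Stat2* stood at 1.50 times *Stat3*, and without a length at 1.09 times. With the coding length, which divides all reads of a gene by its coding bases alone, the direction turned. There *Stat2* stood at 0.909 times *Stat3* (95% CI, 0.896 to 0.923). Which of these genes had more transcripts therefore was not settled by this library, while both were above the other 7 members under each length tried.

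Per kilobase of exon *Stat6* held place 4 and *Stat4* place 6 of the 9 members, while in CPM without a length they held places 5 and 9. STAT6 is the factor of IL-4 and IL-13. *Stat6* (ENSMUSG00000002147.18, chromosome 10, 127642986 to 127660957, plus strand) collected 11233 reads. Its level was 358 CPM (95% CI, 351 to 364) and 81.2 CPM per kilobase of exon (95% CI, 79.8 to 82.8). *Il4ra*, whose product is the receptor chain to which STAT6 binds, had 33.3 CPM per kilobase. STAT4 is the factor of IL-12 and, in some cells, of type I IFN. *Stat4* (ENSMUSG00000062939.11, chromosome 1, 51987148 to 52107189, plus strand) collected 5435 reads. Its level was 173 CPM (95% CI, 169 to 178) and 44.7 CPM per kilobase (95% CI, 43.5 to 45.9). The chains of the IL-12 receptor, *Il12rb2* and *Il12rb1*, had 16.4 and 11.1 CPM per kilobase of exon.

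*Stat4* is a gene that T and NK cells also use. Of the markers of these cells, *Cd3e*, *Cd3d*, *Cd3g*, *Bcl11b*, *Ncr1*, *Klrb1c*, *Gzma* and *Eomes* were listed at 0, below the floor of 0.0955 CPM. How the processing treated low levels is not given in the sources used here, so a 0 does not show absence. *Cd8b1* had 35.1 CPM, *Cd4* 19.5 and *Klre1* 1.24. The noncoding gene *Gm28177* lies on the same strand and shares 1033 of the 3872 exon bases of *Stat4*, or 26.7%. It had 252 reads, which is 4.64% of the number on *Stat4*, and how reads of the shared bases were divided is not given in the sources used here. Of the exon bases of *Stat6*, 40, or 0.909%, also belong to the opposite-strand gene *Nab2*, which had 38 reads.

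*Stat5a* and *Stat5b* encode close paralogs that carry the signals of GM-CSF, IL-3, IL-2 and growth hormone. *Stat5a* (ENSMUSG00000004043.14, chromosome 11, 100859351 to 100885169, plus strand) collected 9479 reads. Its level was 302 CPM (95% CI, 296 to 308) and 42.3 CPM per kilobase of exon (95% CI, 41.5 to 43.2). *Stat5b* (ENSMUSG00000020919.11, chromosome 11, 100780731 to 100850724, minus strand) collected 5436 reads. Its level was 173 CPM (95% CI, 169 to 178) and 31.2 CPM per kilobase (95% CI, 30.4 to 32.1). *Stat5a* was thus the higher of the pair, at 1.35 times *Stat5b* per kilobase of exon (exact binomial 95% CI, 1.31 to 1.40). With the longest transcript as the length the ratio was 2.30, and with the coding length it was 1.72. *Stat4* and *Stat5b* differed by a single read and so had the same level in CPM, but per kilobase of exon *Stat4* stood at 1.43 times *Stat5b* (95% CI, 1.38 to 1.49).

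Reads of this pair can be told apart over most, but not all, of their length. Their longest coding sequences, 2391 and 2358 bases, were identical at 90.8% of the 2291 bases that aligned, while the other pairs of STAT members ran from 58.2% to 65.3% and the kinase pairs from 60.9% to 63.2%. Along the coding sequence of *Stat5a*, in blocks of 300 bases, identity to *Stat5b* was 99.7% from base 601 to 900 and 98.3% from base 901 to 1200, and was 82.7% over the 191 aligned bases of the last block. With the first base of the start codon as base 1, bases 571 to 894 of both genes were identical, a run of 324 bases over 3 exons (chromosome 11, 100874023 to 100874983 in *Stat5a* and 100797741 to 100798701 in *Stat5b*). The edge of this run is shown by bases 511 to 600 of each coding sequence, read from the transcripts of GENCODE M21. The capital marks the only base at which they differ in this stretch, just before the run begins.

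Stat5a edge: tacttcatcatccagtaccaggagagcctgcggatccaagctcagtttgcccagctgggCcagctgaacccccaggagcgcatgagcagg

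Stat5b edge: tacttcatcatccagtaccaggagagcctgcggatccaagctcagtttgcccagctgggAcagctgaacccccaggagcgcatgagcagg

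The middle of the run, bases 658 to 807, is as long as 1 sequencing read of 150 bases and is the same in both genes. A read from it carries no base that tells *Stat5a* from *Stat5b*. Sequencing was paired-end, so the mate of such a read can lie outside the run.

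Stat5a and Stat5b shared stretch: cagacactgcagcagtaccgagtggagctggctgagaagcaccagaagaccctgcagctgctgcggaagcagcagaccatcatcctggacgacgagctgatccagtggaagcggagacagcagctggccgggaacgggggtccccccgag

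Of the 150-base windows in the annotated transcripts, 2.21% of those of *Stat5a* and 3.16% of those of *Stat5b* occurred in a transcript of another gene. With windows of 50 bases these shares were 8.52% and 11.0%. These shares take each read alone, without its mate. How reads from shared windows were assigned is not given in the sources used here. The effect of that step on the ratio of *Stat5a* to *Stat5b* was not tested. For *Stat3* and *Stat2* the shares at 50 bases were 0.555% and 0.788%, and for *Stat6* 0%. They were 7.52% for *Tyk2* and 21.7% for *Stat4*, the members that share exon bases with *1700084C06Rik* and *Gm28177*.

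**Figure D3:**
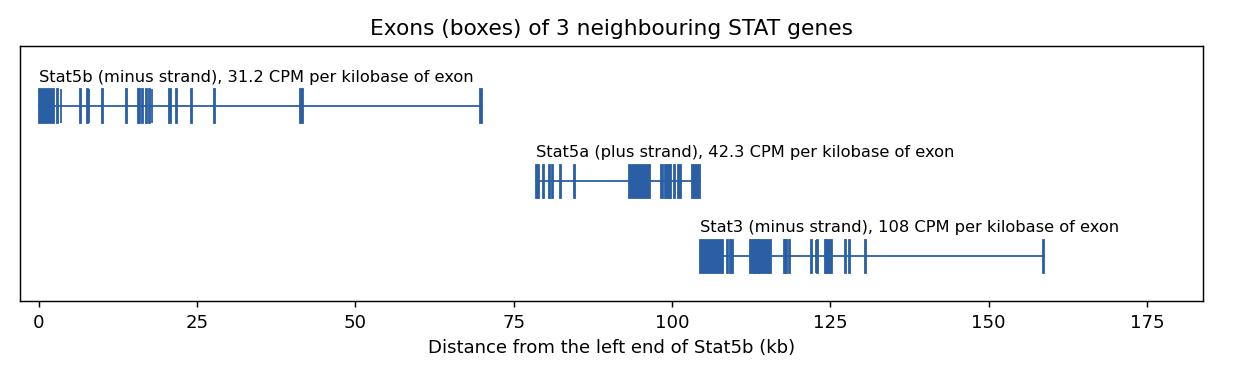
The map shows the annotated exons (boxes) of *Stat5b*, *Stat5a* and *Stat3*, with distance from the left end of *Stat5b* in kb on the horizontal axis and 1 row per gene. The genes are direct neighbours, and their levels in A/A replicate 1 were 31.2, 42.3 and 108 CPM per kilobase of exon.

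*Stat5b*, *Stat5a* and *Stat3* are neighbours on chromosome 11. *Stat5b* and *Stat5a* point away from each other with 8626 bases between them, and *Stat5a* and *Stat3* point towards each other and overlap in 72 exon bases, 1.01% of the exon bases of *Stat5a* and 0.756% of those of *Stat3*. Along the map their levels were 31.2, 42.3 and 108 CPM per kilobase of exon.

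Put in order by CPM per kilobase of exon, the members ran *Stat2*, *Stat3*, *Jak2*, *Stat6*, *Tyk2*, *Stat4*, *Stat5a*, *Stat5b* and *Jak1*. The intervals of neighbours did not overlap at any of the 8 steps, but several steps were small. *Stat4* stood 1.06 times above *Stat5a*, *Stat3* 1.10 times above *Jak2* and *Stat5b* 1.13 times above *Jak1*. Such steps are clear of counting error only, and no replicate shows the spread between mice. They also moved with the length used. With the longest transcript as the length, 4 of the 9 members changed place, and with the coding length 5 did, as did 5 in CPM without a length. *Jak2* held the third place under each of these choices, and *Stat2* and *Stat3* held the first 2 places, in reversed order with the coding length.

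**Figure D4:**
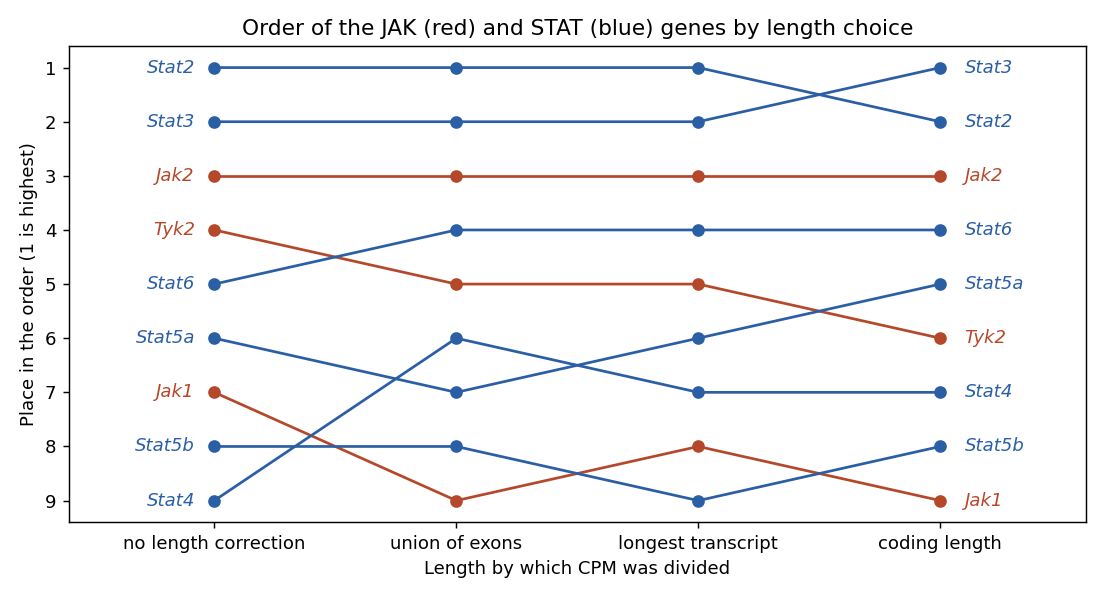
Each line follows 1 member through its place in the order (vertical axis, 1 is the highest) as CPM is divided by no length, by the union of exons, by the longest transcript or by the coding length (horizontal axis). *Jak2* stays at place 3 throughout, *Stat3* passes *Stat2* with the coding length, and *Stat4* moves from place 9 in CPM to place 6 with the union of exons.

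The other genes of the pathway were followed in 7 lists by role, 80 genes in all. Of these, 73 had at least 3 reads, or 91.2%, beside 55.5% of all protein-coding genes listed. Their median was 15.2 CPM per kilobase of exon, beside 0.212 over all protein-coding genes listed. The lists hold genes known from immune cells, so this contrast is a description of the choice as much as of the library.

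The receptor lists were uneven. All 6 IFN receptor genes were above the floor, with a median of 37.5 CPM per kilobase and *Ifnar2* and *Ifnar1* the highest. The lowest of them was *Ifnlr1*, with 37 reads and 0.282 CPM per kilobase. All 10 genes of the common γ chain receptor list were above the floor, with a median of 31.5 CPM per kilobase. The lowest of them was *Il2rb* at 0.223. The common γ chain gene itself, *Il2rg*, had 882 CPM per kilobase and *Il21r* 83.4. Of 15 gp130, IL-12 and IL-10 receptor chains, 11 were above the floor, with a median of 0.997 CPM per kilobase. In that list *Il10ra*, the ligand-binding chain for IL-10, had 82.3 CPM per kilobase and *Il6st*, which encodes gp130, 23.0, while *Osmr*, *Il20ra*, *Il22ra1* and *Lepr* were listed at 0. Of 9 common β chain and hormone receptor genes, 6 were above the floor, with a median of 0.176 CPM per kilobase. Here *Csf2rb*, the common β chain, had 47.8 CPM per kilobase and *Csf2ra*, the GM-CSF receptor α chain, 33.3, while *Il5ra* and *Epor*, receptors of eosinophils and red cell precursors in textbook accounts, were among the genes listed at 0. Every JAK and STAT member was above the floor, while 7 receptor genes were at 0. The 9 members and the receptor genes, which are more in number, were chosen by symbol with earlier results known. Their ranges therefore cannot be set against each other.

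Partners and inhibitors were all above the floor. The 6 partners and adaptors had a median of 10.4 CPM per kilobase of exon, with *Nmi*, a STAT-binding protein, at 92.5 and *Irf9* at 62.8. The 20 inhibitors had a median of 9.91 CPM per kilobase. *Usp18*, which encodes a brake on the type I IFN receptor that is itself induced by IFN, was the highest at 1037 CPM per kilobase, and *Ptpn6*, the gene of the phosphatase SHP-1, followed at 404. *Usp18* had the highest level of all genes in the 7 lists, and the highest member, *Stat2*, had 189 CPM per kilobase of exon.

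The 14 STAT target genes were all above the floor, with a median of 194 CPM per kilobase of exon. *Irf7*, at 888 CPM per kilobase, and *Gbp2*, a GTPase gene induced by IFN, at 665, were the highest. *Myc*, at 3.21 CPM per kilobase, was the lowest of this list. In this library the median of the listed targets was above the median of the members, 63.0 CPM per kilobase. The list was uneven, however. *Pim1*, *Pim2* and *Bcl2l1* had 13.6, 7.23 and 6.64 CPM per kilobase, and they and *Myc* were below the lowest member, *Jak1* with 27.7. All other listed targets were above *Jak1*. No resting or WT library was analysed here to say which of these levels followed the stimulus or the allele.

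**Figure D5:**
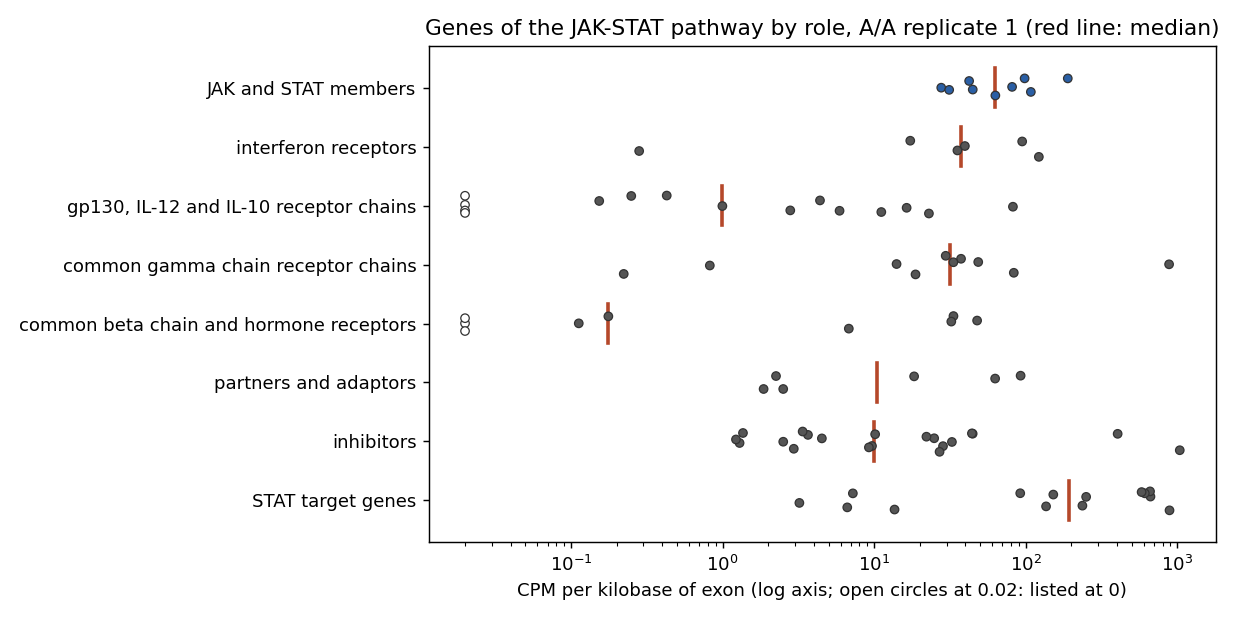
Each point is 1 gene in A/A replicate 1, by CPM per kilobase of exon on a log axis, with 1 row for the 9 members and 1 for each role list, and the red line gives the median. The members lie between 27.7 and 189, while the lists of gp130-type and of common β chain and hormone receptors reach down to genes listed at 0, drawn as open circles at the left.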

How the data were processed

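RNA libraries of R848-stimulated splenic pDCs were made with a kit for mRNA and sequenced as 150-base paired-end reads. Per the labels, the submitters' processing notes name HISAT2, StringTie and the builds mm8 and mm10, without roles. The authors compared genotypes with DESeq2. The value they deposited for each gene is a normalized signal without a stated unit. All values above 0 (100%) were whole multiples, within 0.001, of 1.19, so reads were recovered by dividing by that step. Whether these whole numbers were counted directly or derived from coverage is not given in the sources used here, nor is the use of strand. The length in the table is a genomic span and was not used.

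Gene identifiers were matched without versions to GENCODE M21 of GRCm38 (99.7% matched; 95.2% of these, and all 9 members, with the same coordinates), which gave exon, transcript and coding lengths. Percentiles were taken among genes with reads. Log2 levels used a pseudocount of 1. The scripts ran in Python 3.11.15 with pandas 2.3.3, numpy 2.4.6, Biopython 1.88, scipy 1.17.1 and matplotlib 3.10.9. Recovery of reads was tested on 3 simulated libraries of 52550 genes, drawn from the reads recovered here and each divided by 1 factor. Among genes with simulated reads, 100% were recovered. The libraries were built as counts over 1 factor, so this checks the arithmetic and cannot show that the deposited values are reads. The members and lists were chosen with earlier results of these data known. The genes named are the members, *Irf9*, genes overlapping a member's exons and, in each role list, the 2 highest genes and those listed at 0. *Il4ra*, *Il12rb1*, *Il12rb2*, *Il2rb*, *Ifnlr1*, *Myc*, *Pim1*, *Pim2*, *Bcl2l1* and the cell type markers were named as well, after their values were seen. Some genes of these families and lists are not reported here. Alternatives were other lengths, percentile sets, a total without the 10 genes with the most reads, the deposited value, a pseudocount of 0.1 and a floor of 10 reads.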

Additional observations from a re-analysis of the deposited data

How the results depend on the processing

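No paired analysis was possible because A/A replicate 1 was the only sample used. Relative to the union of exons, 4 members changed place with the longest transcript, 5 with the coding length and 5 without a length. With the longest transcript, the coding length and no length in that order, *Jak1* stood at 0.455, 0.484 and 0.463 times *Tyk2* and at 0.415, 0.398 and 0.405 times *Jak2*, *Stat5a* at 2.30, 1.72 and 1.74 times *Stat5b*, and *Stat2* at 1.50, 0.909 and 1.09 times *Stat3*. Only the last pair turned its direction, with the coding length, which follows from the division by other lengths. The median percentile of the members, 97.3, was 96.8 among genes with at least 10 reads, 99.1 among all genes listed, 96.3 among protein-coding genes with reads and 95.3 by CPM per kilobase of exon. The median level, 358 CPM, was 396 with a total that leaves out the 10 genes with the most reads and 13390 as the deposited value, by construction. A pseudocount of 0.1 left the median log2 level at 8.48 in place of 8.49, and a floor of 10 reads left each role list's count as it was. Depth was no limit for the members, which had 5435 to 35235 reads. The spread between mice was not measured here.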
